A study of Mus musculus with 6 samples.

Results

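Expression of 10 genes was followed in mouse skin: the CC chemokine ligands Ccl2, Ccl3, Ccl4, Ccl5, Ccl6, Ccl7, Ccl8, Ccl9 and Ccl11, and Ccr2, the receptor through which Ccl2 recruits monocytes. They were chosen by symbol rather than by level, and each matched 1 NCBI gene number among the 27179 genes counted. All libraries came from whole skin of female BALB/c mice aged 6 to 8 weeks. The bleomycin+EHP-101 group had 1 library, the bleomycin+AJA group had 3 (replicates 1, 2 and 3), the bleomycin group had 1 and the control group had 1. The 3 single libraries are each labelled replicate 3, and replicates of these groups outside this series, if any, were not used. Bleomycin is an antibiotic that, injected into skin, causes a fibrosis used as a model of scleroderma, and it was part of every group except control. EHP-101 is an oral formulation of a cannabidiol derivative, and AJA is ajulemic acid, a synthetic cannabinoid. The doses, the routes, the time of sampling, whether control mice received a vehicle, and whether each library is 1 animal are not given in the labels used here. P-values therefore measure only the spread between these libraries, which may be technical.

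Chemokines are small secreted proteins that draw leukocytes out of the blood along a gradient, and the CC class is named for a pair of adjacent cysteines near the start of the mature protein. Ccl2 and Ccl7 act on Ccr2 and bring inflammatory monocytes into injured tissue, where they can become macrophages. Ccl11, also called eotaxin, acts on Ccr3 and draws eosinophils. Ccl3, Ccl4 and Ccl5 draw monocytes and T cells, and rodent Ccl6 and Ccl9 act on Ccr1. Mouse Ccl8 acts mainly on Ccr8, a receptor of T helper cells of type 2. In skin these ligands are made by macrophages, fibroblasts, endothelial cells and keratinocytes in differing mixtures.

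The ligand genes are shown by the stretch of coding sequence they have in common, since short reads must tell them apart. Each line gives 42 bases of coding sequence on the sense strand, from the GENCODE M21 annotation of GRCm38, with the codons of the adjacent cysteines in capitals.
Ccl2: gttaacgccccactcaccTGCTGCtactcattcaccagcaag
Ccl7: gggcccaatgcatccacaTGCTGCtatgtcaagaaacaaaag
Ccl8: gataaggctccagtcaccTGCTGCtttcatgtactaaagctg
Ccl11: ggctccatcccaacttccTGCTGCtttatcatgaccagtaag
Ccl3: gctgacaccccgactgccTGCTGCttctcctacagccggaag
Ccl4: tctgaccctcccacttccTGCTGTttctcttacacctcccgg
Ccl5: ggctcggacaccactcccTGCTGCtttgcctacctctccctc
Ccl6: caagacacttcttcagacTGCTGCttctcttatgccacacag
Ccl9: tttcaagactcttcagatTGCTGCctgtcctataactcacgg

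The cysteine codons were numbers 32 to 35 in the ligands other than Ccl6 (50 and 51) and Ccl9 (57 and 58), counted from the start codon. Over the 36 pairs of ligands, coding sequences were 57.2 to 70.6% identical. Ccl6 and Ccl9 were the closest pair, and Ccl3 and Ccl4 followed with 69.96%. No stretch of 50 bases, the read length, was shared between members. In 8 members none was shared with any other gene, and 1.97% of such stretches of Ccl9 and 1.91% of those of Ccr2 occurred elsewhere in the transcriptome. 

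In mm10 the 9 ligand genes lie on chromosome 11 in 2 groups 1409 kb apart. The first spans 81.2 kb and holds Ccl2 (82035577 to 82037452), Ccl7 (82045712 to 82047525), Ccl11 (82057832 to 82062955) and Ccl8 (82115185 to 82116799). The second spans 138.9 kb and holds Ccl5 (83525778 to 83530518), Ccl9 (83572917 to 83578636), Ccl6 (83587886 to 83593087), Ccl3 (83647843 to 83649378) and Ccl4 (83662584 to 83664683). Ccr2 lies on chromosome 9 (124102183 to 124109140). All intervals cover the annotated exons and introns of each gene.

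The libraries held 14291592 to 19837682 counts, of which mitochondrial ribosomal RNA took 17.3 to 26.5%. Keratinocyte markers summed to 6112 to 10764 CPM (counts scaled to the library size) and fibroblast markers to 2617 to 5355 CPM, both cell types that skin holds. Markers of hepatocytes, which skin does not hold, summed to 514 CPM in EHP-101, to 7.30, 14.3 and 2.64 CPM in AJA replicates 1, 2 and 3, to 547 CPM in bleomycin and to 793 CPM in control. The AJA libraries thus stood apart from the 3 single libraries in a way that cannot be told apart from the AJA group itself. Hair follicle markers summed to 10019 CPM in EHP-101, to 10630, 485 and 25072 CPM in the AJA replicates, to 1003 CPM in bleomycin and to 11409 CPM in control. AJA replicate 2 and the bleomycin library were thus low in hair follicle RNA, and the part of this in the comparisons that use them was not tested. Of the eosinophil markers, the granule genes Epx and Prg2 were at or near 0. Epx, which encodes eosinophil peroxidase, had 0 to 3 counts per library, and Prg2, which encodes eosinophil major basic protein, had 0 to 5. Other genes of the list were higher: Ear2 had 18 to 64 counts, Ccr3 19 to 60 and Siglecf, a surface receptor, 4 to 30. In whole skin, fewer cells of a type and less RNA per cell cannot be told apart.

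Levels differed widely between the genes. Compared per kilobase of exon, as the mean over the 6 libraries, Ccl8 was the most abundant at 147 CPM per kb. Ccl6 followed at 40.5, Ccr2 at 20.6, Ccl11 at 17.1, Ccl9 at 13.8, Ccl2 at 12.95 and Ccl7 at 12.3 CPM per kb. Ccl3 (1.11), Ccl5 (0.746) and Ccl4 (0.551 CPM per kb) were scarce. The middle of this order differed between libraries: in bleomycin Ccl7 (18.3) and Ccl2 (17.2) were above Ccl11 (14.8 CPM per kb), and in control they were at 4.27 and 3.99, below Ccl11 at 21.3 CPM per kb. Ccl8 alone made up 42.7 to 65.7% of the summed CPM per kb of the 10 genes, lowest in control and highest in AJA replicate 2.

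Ccl2 and Ccl7, the ligands of Ccr2, were lowest in control skin. Ccl2 was at 9.46 CPM in the EHP-101 library, at 10.6, 12.2 and 13.3 CPM in AJA replicates 1, 2 and 3, at 13.9 CPM in bleomycin and at 3.22 CPM in control. The exact Poisson 95% interval of the control count, 2.38 to 4.26 CPM, lay below the lowest library with bleomycin. That of the EHP-101 count, 8.03 to 11.1 CPM, took in AJA replicate 1 and lay below that of bleomycin alone (12.1 to 15.8 CPM). These intervals cover counting error only, since the reads carry no molecular identifiers. The AJA libraries were close to each other, with a mean of 12.03 ± 1.38 CPM (SD, n = 3).

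Ccl7 was at 7.51 CPM in EHP-101, at 9.41, 14.3 and 9.88 CPM in the AJA replicates, at 14.6 CPM in bleomycin and at 3.42 CPM in control. Its AJA mean was 11.2 ± 2.68 CPM (SD, n = 3). Control and EHP-101 each lay outside the range of every neighbour in the order of levels, while AJA overlapped bleomycin. The counting interval of AJA replicate 1 (7.905 to 11.1 CPM) did overlap that of EHP-101 (6.24 to 8.955 CPM). By level or mean, Ccl2 and Ccl7 had the same order of groups: bleomycin, AJA, EHP-101 and control, from high to low. Control as the lowest was resolved for both genes. The counting interval of EHP-101 also lay below that of bleomycin alone for both, which for Ccl7 was 12.8 to 16.7 CPM. Each of these is 1 library, and the intervals leave out variation between animals. AJA overlapped bleomycin for both, and it overlapped EHP-101 for Ccl2.

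**Figure D1:**
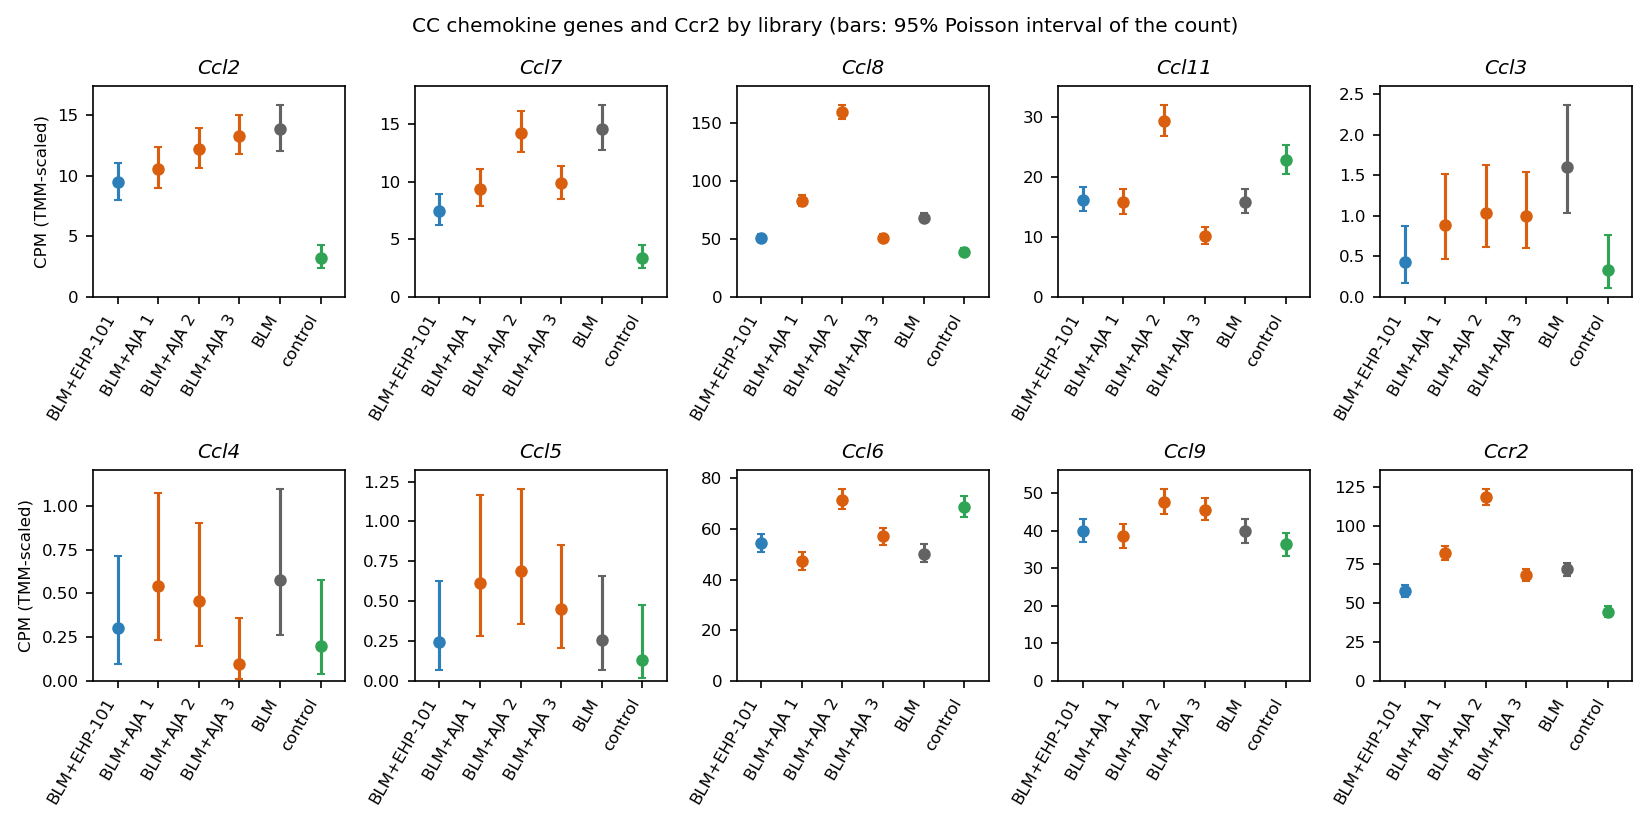
Level of each of the 10 genes in CPM (y axis, from 0, with its own scale for each gene) in each library (x axis). Points are single libraries and bars are the exact 95% Poisson interval of the count; Ccl2 and Ccl7 are lowest in control (3.22 and 3.42 CPM), and AJA replicate 2 is the highest library for Ccl8 and Ccr2 (159 and 118 CPM).

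Ccl8 varied widely among the AJA libraries. It was at 50.6 CPM in EHP-101, at 82.9, 159 and 51.1 CPM in AJA replicates 1, 2 and 3, at 68.3 CPM in bleomycin and at 39.1 CPM in control. The highest AJA library was 3.11 times the lowest, so the AJA range took in the bleomycin library and replicate 3 was close to EHP-101. Control lay below every library with bleomycin, and its interval (36.0 to 42.4 CPM) did not reach that of EHP-101 (47.2 to 54.2 CPM).

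Ccl11, the eosinophil ligand, showed no such order. It was at 16.2 CPM in EHP-101, at 15.8, 29.3 and 10.2 CPM in the AJA replicates, at 15.9 CPM in bleomycin and at 22.8 CPM in control. Control was above every library with bleomycin except AJA replicate 2, and each pair of neighbouring groups overlapped. Of the 4 genes of the first group on chromosome 11, Ccl11 alone was not lowest in control, although it lies between Ccl7 and Ccl8. Among the AJA libraries, Ccl8 and Ccl11 were both highest in replicate 2 and lowest in replicate 3. Whether the genes differ in pattern was not tested.

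Ccl3, a ligand made by activated macrophages, was at 7 counts (0.427 CPM) in EHP-101, at 13, 18 and 20 counts (0.886, 1.03 and 0.998 CPM) in the AJA replicates, at 25 counts (1.604 CPM) in bleomycin and at 5 counts (0.329 CPM) in control. EHP-101 and control overlapped in their counting intervals, and by level AJA lay between them and bleomycin. The counting interval of each AJA library (0.472 to 1.516 CPM in replicate 1) overlapped those of bleomycin (1.038 to 2.368 CPM), EHP-101 (0.172 to 0.880 CPM) and control (0.107 to 0.767 CPM). The place of AJA was thus not resolved. Ccl3 entered the test through the bleomycin and AJA libraries alone, since only these reached the filter, so a difference from control or EHP-101 was in part selected by the filter. Ccl5, a T cell and macrophage product, had 4 counts in EHP-101, 9, 12 and 9 in the AJA replicates, 4 in bleomycin and 2 in control. It entered through AJA replicate 2 alone. The ratio to control was 1.86 in EHP-101, 4.38 in AJA and 1.95 in bleomycin, with exact 95% counting intervals of 0.266 to 20.5, 1.11 to 37.8 and 0.28 to 21.6, so its fitted fold changes against control are poorly determined. Ccl4, close in sequence to Ccl3, had 5 counts in EHP-101, 8, 8 and 2 in the AJA replicates, 9 in bleomycin and 3 in control, and it was not tested. The order of Ccl4 and of Ccl5 was not resolved at this depth, as the counting intervals or ranges of all neighbours overlapped.

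Ccl6 and Ccl9, the Ccr1 ligands, were well counted, and Ccl9 was nearly flat. Ccl9 was at 40.03 CPM in EHP-101, at 38.5, 47.8 and 45.7 CPM in the AJA replicates, at 39.98 CPM in bleomycin and at 36.4 CPM in control. The highest of the 6 libraries was 1.31 times the lowest, and every neighbouring pair of groups overlapped. Ccl6 was at 54.3 CPM in EHP-101, at 47.3, 71.6 and 57.1 CPM in the AJA replicates, at 50.2 CPM in bleomycin and at 68.8 CPM in control. Here too all neighbours in the order overlapped, with the wide AJA range next to control. The control interval (64.7 to 73.1 CPM) lay above those of EHP-101 (50.8 to 58.0 CPM) and bleomycin (46.8 to 53.9 CPM). The highest library for Ccl6 was 1.515 times the lowest.

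Ccr2 was at 57.9 CPM in EHP-101, at 82.1, 118 and 68.2 CPM in the AJA replicates, at 71.7 CPM in bleomycin and at 44.5 CPM in control. Control lay below every other library, EHP-101 came next, and bleomycin lay within the AJA range. The receptor therefore had its lowest level in the same library as its ligands, but its highest in AJA replicate 2, where Ccl8 and Ccl11 were also highest. Replicate 2 was the highest of the 3 AJA libraries for 8 of the 10 genes, Ccl2 and Ccl4 being the exceptions.

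The first comparison asked what the bleomycin library held relative to control. Ccl2 was 4.30-fold higher in bleomycin (log2 fold change 2.104, SE 0.32), Ccl7 was 4.28-fold higher (2.096, SE 0.43) and Ccl3 was 4.80-fold higher (2.26, SE 0.63). Ccl5 (0.93, SE 1.11), Ccl8 (0.80, SE 0.80), Ccr2 (0.69, SE 0.42) and Ccl9 (0.14, SE 0.24) had smaller positive log2 fold changes. Those of Ccl6 (−0.45, SE 0.33) and Ccl11 (−0.52, SE 0.74) were negative. With edgeR's quasi-likelihood test, adjusted by the Benjamini-Hochberg method over 17377 genes, 0 of the 9 genes tested passed a threshold of 0.05 in either direction, against a background of 0% of all genes. The adjusted p was 0.434 for Ccl2, 0.513 for Ccl7 and 0.642 for Ccl3.

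At an unadjusted p under 0.05, those 3 genes counted as higher, against 4.70% of all genes tested. The same 3 were at least 2-fold higher, against 7.75% of all genes. Ccl2 and Ccl7 had similar fold changes from many counts, whereas that of Ccl3 rested on 25 counts in bleomycin and 5 in control, and Ccl3 passed the filter through libraries with bleomycin alone. Without Ccl3, whose count here is no support, 2 genes remain. The log2 fold change was positive for 7 of the 9 genes, against 49.5% of all genes, and its median was 0.80 over the members and −0.01 over all genes. The 7 include Ccl3, from which nothing is read here. All spread in this test came from the AJA group, and bleomycin and control, with 1 library each, were taken to have the same spread. DESeq2, which estimates spread differently, called Ccl2 (adjusted p = 0.0101) and Ccl7 (adjusted p = 0.0442) higher, with 0.821% of the genes that had an adjusted p called higher and 0.239% lower. Ccl3 and Ccl5 had no adjusted p there. limma called 0 of 9, against 0% of all genes. Without AJA replicate 3 edgeR also called Ccl2 (adjusted p = 0.0410), with 0.802% of all genes called higher.

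**Figure D2:**
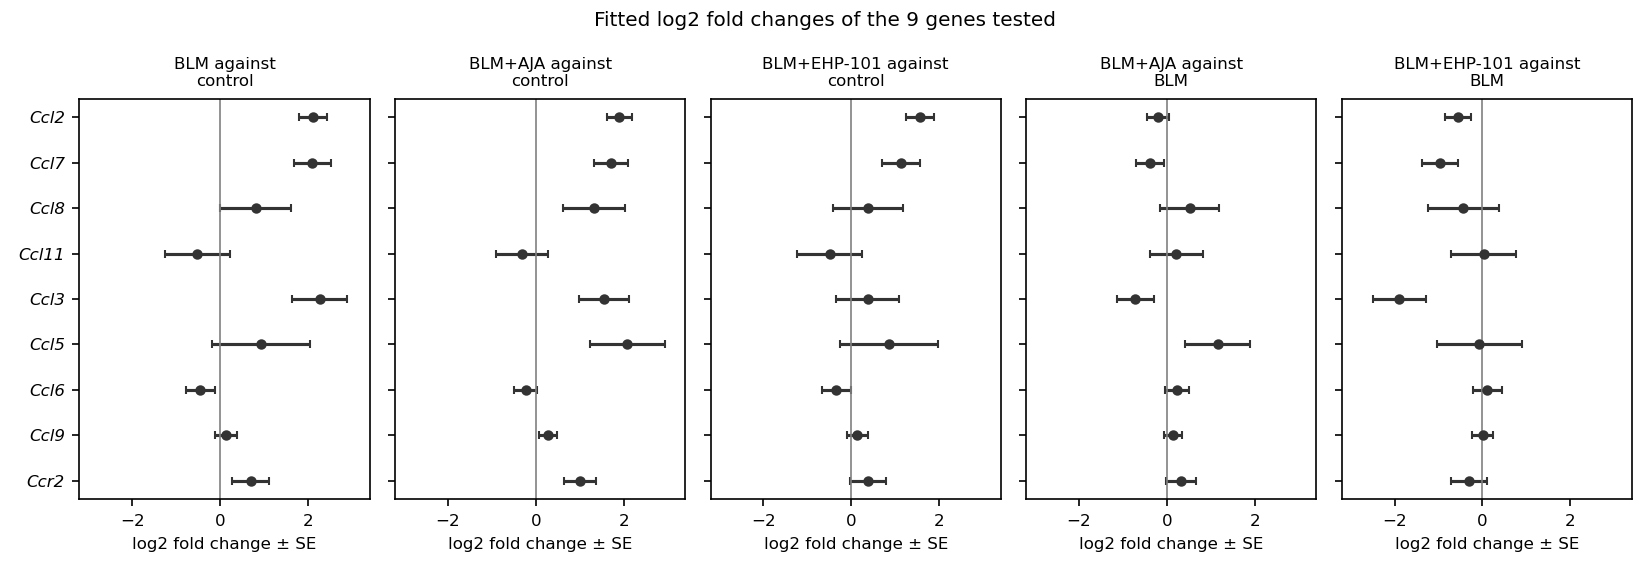
Fitted log2 fold change (x axis) with its standard error (bars) for the 9 genes tested (rows), in the comparisons with control and with bleomycin. Ccl2 and Ccl7 are above 0 in all 3 comparisons with control, Ccl6 and Ccl11 are below 0 there, and in bleomycin+EHP-101 against bleomycin Ccl3 is the lowest at −1.89.

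The AJA libraries were compared with the same control library, so the values below share it with those above. The log2 fold change was 1.90 (SE 0.28) for Ccl2, 1.71 (SE 0.38) for Ccl7, 1.55 (SE 0.56) for Ccl3, 2.08 (SE 0.85) for Ccl5, 1.32 (SE 0.71) for Ccl8 and 1.01 (SE 0.36) for Ccr2. That of the other 3 was 0.27 (SE 0.20) for Ccl9, −0.23 (SE 0.27) for Ccl6 and −0.31 (SE 0.59) for Ccl11. With edgeR 0 of 9 passed after adjustment, against 0% of all genes higher and 0.0345% lower, and the adjusted p was 0.136 for Ccl2 and 0.306 for Ccl7. At an unadjusted p under 0.05, 4 genes (Ccl2, Ccl3, Ccl7 and Ccr2) were higher, against 3.02% of all genes. DESeq2 called Ccl2 (adjusted p = 0.00197) and Ccl7 (adjusted p = 0.0453) higher, with 0.488% of its genes called higher and 0.919% lower, and limma called 0 against 0%.

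All 3 AJA libraries were above control for 7 of 9 genes, against 26.9% of all genes tested, and the same 7 had a positive log2 fold change (54.9% of all genes). The other 2 were Ccl6 and Ccl11. At least 2-fold higher were 6 genes (Ccl2, Ccl3, Ccl5, Ccl7, Ccl8 and Ccr2), against 4.41% of all genes. Of these, Ccl3 and Ccl5 passed the filter only through libraries where they were high, so nothing is read from their part of the counts in this comparison. Without AJA replicate 2, 3 genes were at least 2-fold higher (Ccl2, Ccl3 and Ccl7), so the fold sizes of Ccl8 and Ccr2 depended on that library. Ccl5 no longer passed the filter without it. The median log2 fold change of the members was 1.32 (0.04 over all genes) and 0.72 without replicate 2. Without AJA replicate 3, edgeR called Ccl2 (adjusted p = 0.0277), with 0.791% of all genes called higher.

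In EHP-101 against control, Ccl2 had a log2 fold change of 1.55 (SE 0.32) and Ccl7 one of 1.13 (SE 0.43). The other 7 genes lay between −0.50 (Ccl11) and 0.86 (Ccl5), and 7 of all 9 were positive (50.1% of all genes). With edgeR 0 of 9 passed after adjustment (background 0%), with an adjusted p of 0.655 for Ccl2. DESeq2 called 0 (background 0.539% higher and 0.162% lower) and limma called 0 (background 0%). Ccl2 and Ccl7 were the 2 genes higher at an unadjusted p under 0.05 (background 2.92%) and the 2 that were at least 2-fold higher (background 5.46%). The members' median was 0.37, and that of all genes was 0.00.

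**Figure D3:**
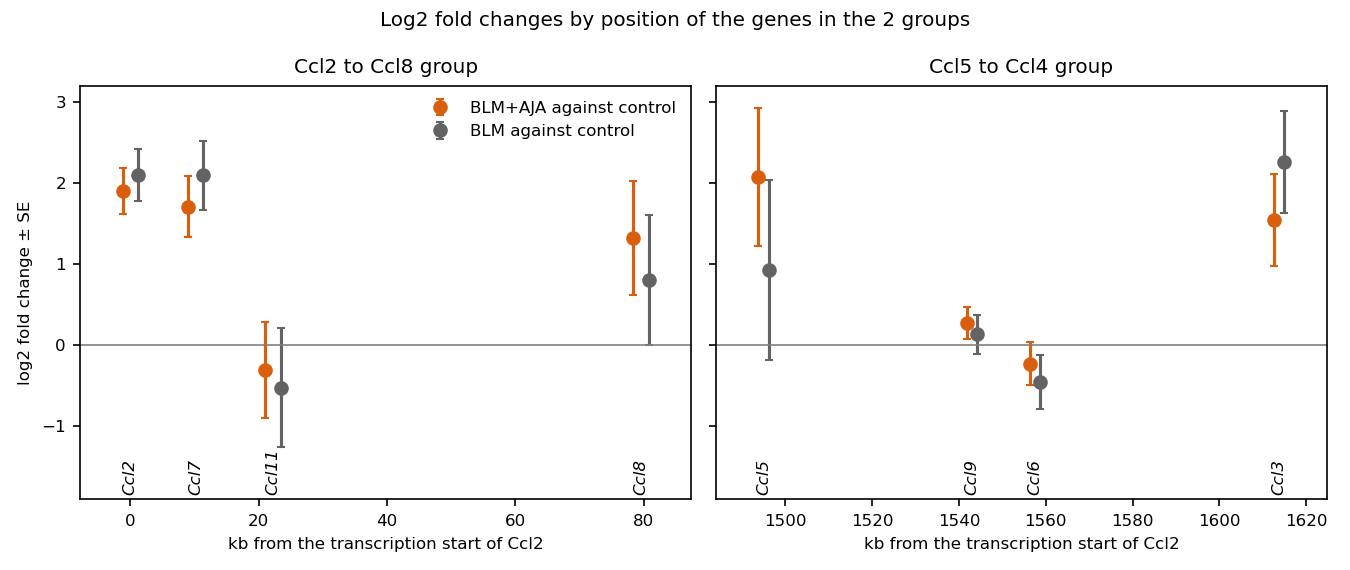
Log2 fold change against control (y axis, bars are the standard error) by distance of each gene's transcription start from that of Ccl2 (x axis, kb), for AJA and for bleomycin; points of the 2 comparisons are set slightly apart. Within the first group Ccl11 lies below 0 between Ccl7 and Ccl8, and within the second Ccl9 and Ccl6, between Ccl5 and Ccl3, lie closer to 0 than these. Ccl5 and Ccl3 had few counts and did not reach the filter in control, so nothing is read from the contrast in the second group.

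The comparisons with bleomycin addressed what each compound did on top of bleomycin, and both used the 1 bleomycin library. In EHP-101 against bleomycin, Ccl3 had a log2 fold change of −1.89 (SE 0.60), Ccl7 one of −0.96 (SE 0.41), Ccl2 one of −0.55 (SE 0.30), Ccl8 one of −0.43 (SE 0.80) and Ccr2 one of −0.31 (SE 0.42). Ccl5 (−0.07), Ccl9 (0.00), Ccl11 (0.03) and Ccl6 (0.11) were near 0. With edgeR 0 of 9 passed after adjustment (background 0% in either direction, adjusted p 1 for each). DESeq2 called 0 (background 0.00867% higher and 0.0347% lower) and limma called 0 (background 0%). Ccl3 was the 1 gene lower at an unadjusted p under 0.05 (background 1.32%) and the 1 gene at least 2-fold lower (background 4.02%). It rested on 7 counts in EHP-101 and 25 in bleomycin, and it passed the filter through bleomycin and AJA libraries but not EHP-101, so the count is no support. The median was −0.31 over the members and 0.00 over all genes.

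In AJA against bleomycin, Ccl2 (−0.20, SE 0.24), Ccl7 (−0.39, SE 0.32) and Ccl3 (−0.72, SE 0.43) had negative log2 fold changes, and all 3 AJA libraries lay below bleomycin for these 3 genes, against 24.6% of all genes. Ccl5 was the 1 gene for which all 3 lay above (22.9% of all genes) and the 1 that was at least 2-fold higher (1.15, SE 0.73; background 4.35%), on 9 to 12 counts per AJA library and 4 in bleomycin. Since it passed the filter through AJA replicate 2 alone, this direction was selected and the counts say nothing about it. The remaining 5 lay between 0.14 (Ccl9) and 0.52 (Ccl8), so that 6 of 9 were positive (52.8% of all genes). Without AJA replicate 2 the log2 fold change of Ccl8 was −0.01 in place of 0.52, that of Ccl11 was −0.28 in place of 0.22, and the members' median was −0.11 in place of 0.22. With edgeR 0 of 9 passed after adjustment (background 0%), with an adjusted p of 0.998 for each, 0 were called at an unadjusted p under 0.05 (background 0.622% higher and 3.21% lower). DESeq2 called 0 (background 0.0201% higher and 0.501% lower) and limma called 0 (background 0%).

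EHP-101 and AJA, both cannabinoid derivatives, were compared with each other in 1 library against 3, at doses and times that the labels do not give. All 9 genes had negative log2 fold changes, against 54.5% of all genes. They ran from −0.11 (Ccl6) to −1.22 (Ccl5, SE 0.73), with Ccl3 at −1.18 (SE 0.53), Ccl8 at −0.95 (SE 0.69), Ccr2 at −0.63 (SE 0.35), Ccl7 at −0.58 (SE 0.34) and Ccl2 at −0.35 (SE 0.25). Ccl3 and Ccl5 were at least 2-fold lower (background 1.81%), on 7 and 4 counts in EHP-101. Both passed the filter through AJA and not through EHP-101, so nothing is read from this count. Their part in the 9 negative values was selected in the same way and is no support either. Without AJA replicate 2, Ccl6 (0.08) and Ccl11 (0.34) turned positive. With edgeR 0 of 9 passed after adjustment (background 0%, adjusted p 1 for each) and 0 at an unadjusted p under 0.05 (background 1.97% higher and 0.397% lower). DESeq2 called 0 (background 0.369% higher and 0% lower) and limma called 0 (background 0%).

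Leukocyte markers were set beside the chemokines. Monocyte markers (10 genes) summed to 450 CPM in EHP-101, to 536, 692 and 462 CPM in the AJA replicates, to 575 CPM in bleomycin and to 524 CPM in control. Macrophage markers (10 genes) summed to 561 CPM in EHP-101, to 764, 1008 and 494 CPM in the AJA replicates, to 768 CPM in bleomycin and to 651 CPM in control. Neither list was lowest in control, unlike Ccl2, Ccl7, Ccl8 and Ccr2. AJA replicate 2 had the highest sum in both, as it did for Ccl8 and Ccr2. In bleomycin against control, 5 of 9 monocyte markers tested had positive log2 fold changes, from Ms4a4c at 2.60 to F13a1 at −1.11, and 5 of 10 macrophage markers did, from Cd74 at 0.79 to Folr2 at −1.848.

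Neutrophil, dendritic cell and T and NK cell markers summed higher in bleomycin than in control, and mast cell markers (90.4 and 144.4 CPM) and B cell markers (1.16 and 1.58 CPM) summed lower. Neutrophil markers (8 genes) summed to 17.1 CPM in EHP-101, to 22.3, 28.2 and 19.4 CPM in the AJA replicates, to 38.9 CPM in bleomycin and to 12.1 CPM in control, the lowest library. Of the 6 tested, 5 had positive log2 fold changes in bleomycin against control (median 1.73), from Cxcr2 at 2.43 to Retnlg at −0.49. Cxcr2 and Mmp8 (9 and 8 counts in control) reached the filter in bleomycin but not in control, so their direction was in part selected. Dendritic and Langerhans cell markers (6 genes) summed to 92.5 CPM in EHP-101, to 126.8, 168.5 and 72.3 CPM in the AJA replicates, to 144.9 CPM in bleomycin and to 77.1 CPM in control, and all 6 log2 fold changes in bleomycin against control were positive (median 1.12). T and NK cell markers (11 genes) summed to 12.8 CPM in EHP-101, to 14.6, 20.9 and 8.88 CPM in the AJA replicates, to 16.6 CPM in bleomycin and to 10.3 CPM in control, with 9 of 11 positive (median 0.80). Cd3d, Cd8a, Klrd1 and Ncr1 (10, 7, 5 and 3 counts in control) likewise reached the filter in bleomycin but not in control. Nothing is read from the part of such genes in these counts. EdgeR called 0 of the genes of these lists after adjustment in that comparison. Control was the lowest library for neutrophil markers, as for Ccl2, Ccl7, Ccl8 and Ccr2, and AJA replicate 3 was the lowest for the other 2 lists. The part of these cells in the chemokine values was not tested.

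In a ratio chosen after the values were seen, Ccl2 equalled 1.69% of the summed macrophage markers in EHP-101, 1.38, 1.21 and 2.70% in the AJA replicates, 1.80% in bleomycin and 0.495% in control. Ccr2 equalled 12.9% of the summed monocyte markers in EHP-101, 15.3, 17.1 and 14.8% in the AJA replicates, 12.5% in bleomycin and 8.50% in control. Control remained the lowest library for both genes when set against these sums, in which abundant genes weigh most. Lyz2 alone gave 248.9 of the 523.5 CPM of monocyte markers in control. Single monocyte markers went both ways: Ms4a4c was at 1.31 CPM in control and 8.02 CPM in bleomycin, and F13a1 at 147.8 and 68.3 CPM. A ratio to Ms4a4c would thus not be lowest in control, and the part of cell number was not tested. For Ccl8 against macrophage markers the values were 9.02% in EHP-101, 10.9, 15.8 and 10.4% in the AJA replicates, 8.89% in bleomycin and 6.01% in control. Eosinophil markers (10 genes) summed to 5.92 CPM in EHP-101, to 6.89, 13.5 and 7.43 CPM in the AJA replicates, to 7.64 CPM in bleomycin and to 10.7 CPM in control, with 2 or 3 of the genes at 0 in a library. Their part in the Ccl11 values was not tested.

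**Figure D4:**
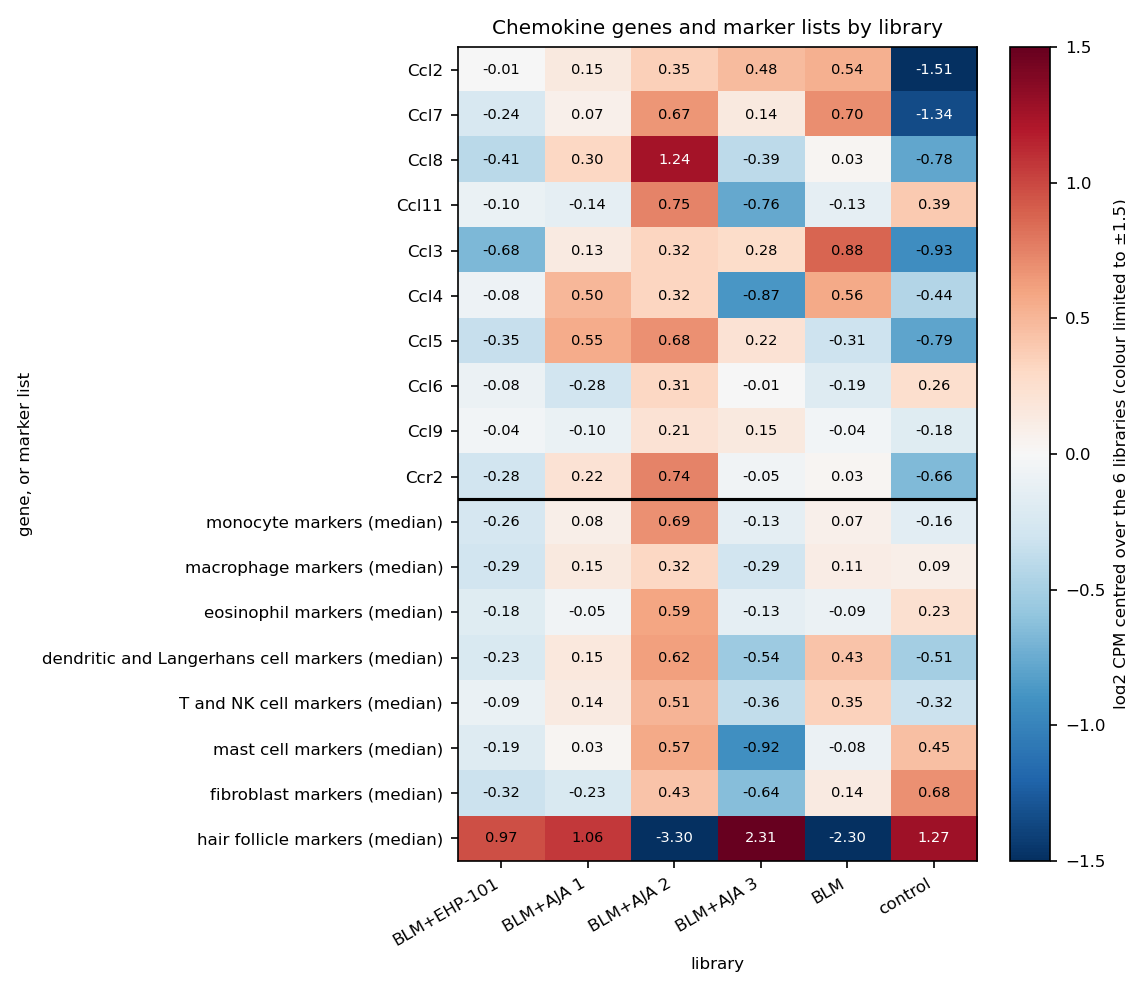
Log2 CPM centred over the 6 libraries (colour, limited to ±1.5, with the value printed) for the 10 genes (upper rows) and the median of each marker list (lower rows), by library (columns). Ccl2 is at −1.51 in control, while the monocyte and macrophage medians there are −0.16 and 0.09; of the 3 AJA libraries, replicate 2 has the highest median in 7 of the 8 marker lists plotted and the lowest for hair follicle markers.

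The remaining chemokine system was read from lists of related genes, in none of which edgeR called a gene after adjustment in the comparisons given here. Of 11 other CC chemokines 8 were tested, and in bleomycin against control 6 had positive log2 fold changes, from Ccl12, a further Ccr2 ligand of mice that lies between Ccl11 and Ccl8, at 1.67, to Ccl24, an eosinophil ligand acting on Ccr3, at −1.23. Ccl24 was at 2.20 CPM in EHP-101, at 1.64, 3.50 and 1.70 CPM in the AJA replicates, at 3.34 CPM in bleomycin and at 7.82 CPM in control. Control was thus the highest library for Ccl24, while for Ccl11 it was second to AJA replicate 2. Of 13 other CC receptors and scavengers 12 were tested. In bleomycin against control 11 had positive log2 fold changes and 1 had a negative one. The 11 include Ccr6 and Ccr7, which did not reach the filter in control (9 and 10 counts), so their direction was in part selected. The same holds for Ccl17 and Ccl20 among the other CC chemokines (2 and 10 counts in control).

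Ccr1, the receptor of Ccl6 and Ccl9, had the largest log2 fold change of the receptor list at 1.99, with 7.02 CPM in EHP-101, 7.23, 10.2 and 8.48 CPM in the AJA replicates, 12.8 CPM in bleomycin and 3.22 CPM in control. Ccr3, the receptor of Ccl11, had the smallest at −1.18, with 1.16 CPM in EHP-101, 1.98, 2.58 and 1.80 CPM in the AJA replicates, 1.73 CPM in bleomycin and 3.94 CPM in control. Control was the lowest library for Ccr1 and the highest for Ccr3. In EHP-101 against bleomycin all 12 receptors tested had negative log2 fold changes, down to −2.99 for Ccr7, which guides dendritic cells and T cells to lymph nodes and had 4 counts in EHP-101 and 31 in bleomycin. The median was −0.62, against 0.00 over all genes. Ccr7 and Ccr6 (7 counts in EHP-101 and 28 in bleomycin) reached the filter in bleomycin but not in EHP-101. Their direction was in part selected by the filter, so nothing is read from their part in the 12 values.

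Genes of the pathways that switch on CC chemokines were also listed. All 12 NF-kappa-B pathway genes had positive log2 fold changes in bleomycin against control (49.5% of all genes), between 0.08 (Rela) and 0.85 (Nfkbiz), with a median of 0.36. In AJA against control the 12 values were positive too (54.9% of all genes), between 0.14 (Rela) and 0.82 (Nfkbiz). Both comparisons use the same 1 control library, so the second does not repeat the first. In EHP-101 against bleomycin they were mixed, 5 positive and 7 negative, with a median of −0.02. Of 12 inducing cytokines 7 were tested, and in bleomycin against control the 7 values were positive (49.5% of all genes). The smallest was that of Il1a at 0.14. The largest was that of Il6, an inflammatory cytokine, on 9 counts in bleomycin and 2 in control (ratio 4.40, exact 95% counting interval 0.91 to 41.8). Il6 reached the filter in neither of these libraries but only in AJA libraries, so nothing is read from its value. The 5 cytokines Ifng, Csf2, Il4, Il5 and Il13 did not reach the filter. Among CXC chemokines, Cxcl5, a neutrophil ligand, had 5 counts in EHP-101, 6, 6 and 13 in the AJA replicates, 48 in bleomycin and 1 in control. The ratio of bleomycin to control was 46.9 (exact 95% counting interval 8.02 to 1890). Cxcl5 did not reach the filter in control, and it was named for the largest log2 fold change of its list in this comparison. Its direction was thus selected and the ratio is no support.

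Genes whose pattern over the 6 libraries was most like a member's were ranked by the root mean square difference of centred log2 CPM among 12765 genes. For Ccr2 the nearest was Cnr2, the cannabinoid receptor of immune cells, with a difference of 0.09. Cnr2 was at 3.05 CPM in EHP-101, at 4.77, 6.65 and 3.34 CPM in the AJA replicates, at 4.30 CPM in bleomycin and at 2.23 CPM in control. Coro1a and Cd180, both leukocyte genes, followed at 0.12. For Ccl2 the nearest was Oas3, an interferon-induced gene, at 0.18, and then Rmrp (0.20) and Snora7a (0.21), which are non-coding RNAs. Ccl8 was nearest to Nxpe5 (0.17), Aox4 (0.19) and Coch (0.21), and Ccl11 to Sned1, Ecm2 and Cadm3 (0.12 each). In 6 libraries with 1 AJA replicate standing apart, such likeness is a description only.

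Promoter sequence from RefSeq on GRCm38.p6 was matched for 5 members (Ccl3, Ccl6, Ccl8, Ccl9 and Ccr2). It is shown for Ccl8, whose AJA libraries differed widely, and Ccl9, the ligand with the smallest ratio of highest to lowest library (1.31), as the 250 bases before the start on the gene's own strand. Capitals mark a TATAAA box on the sense strand and, in Ccl9, an NF-kappa-B motif on the opposite strand.
Ccl8, chr11:82114935-82115184, plus strand: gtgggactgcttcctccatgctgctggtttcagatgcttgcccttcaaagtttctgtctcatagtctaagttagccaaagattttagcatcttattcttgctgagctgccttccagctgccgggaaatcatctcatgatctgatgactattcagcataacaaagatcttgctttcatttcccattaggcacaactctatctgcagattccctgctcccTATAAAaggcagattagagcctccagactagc
Ccl9, chr11:83578637-83578886, minus strand: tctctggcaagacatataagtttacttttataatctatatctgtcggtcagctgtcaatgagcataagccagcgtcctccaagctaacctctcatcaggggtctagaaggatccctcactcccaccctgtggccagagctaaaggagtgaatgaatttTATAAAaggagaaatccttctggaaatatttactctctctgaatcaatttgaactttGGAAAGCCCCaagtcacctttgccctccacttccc

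The TATAAA box stood 32 bases before the start in Ccl8 and 92 bases before it in Ccl9, and 7.59% of 32851 promoters of the same length held one. The NF-kappa-B motif of Ccl9 stood 35 bases before the start, and 7.25% of promoters held one on either strand. Neither the AP-1 motif TGAGTCA (4.46% of promoters) nor the STAT motif TTCNNNGAA (7.02%), searched on both strands with no motif contained in another, was present in the windows of the 5 members. A match is a description of these letters and not a site of binding.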

How the data were processed

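The authors deposited raw counts per gene with exon coordinates and exon lengths in bases. The tools named in the submitters' processing notes were HISAT2 2.1.0, Trimmomatic 0.36, DESeq2 1.20.0 and featureCounts 1.6.1, on mm10. Per the labels' protocols, 300 ng of total RNA per sample was depleted of ribosomal RNA and sequenced as stranded single-end reads of 50 bp. The strand setting and the handling of multiply mapped reads were not given in the sources used here. A merged table held the same counts (0 differing values), and its 6 columns of another series were not used. Any replicates of control, bleomycin or EHP-101 among those columns are thus not part of the results. A symbol was matched to 25275 of the gene numbers, leaving 1904 unnamed. The chi-square of counts between AJA pairs, divided by its degrees of freedom, was 34.96 or more, so the 3 libraries are separate.

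Testing used edgeR 4.0.16 (R 4.3.3) with filterByExpr (minimum count 10), TMM scaling and robust two-sided quasi-likelihood F-tests in 1 fit of 6 libraries, over 6 comparisons and 17377 genes. Its 2 residual degrees of freedom came from the AJA group, and the common biological coefficient of variation was 0.267. The filter corresponded to 0.640 CPM in at least 1 library. CPM used TMM-scaled library sizes. Log2 CPM had a prior count of 3. DESeq2 1.42.0 and limma 3.58.1 were alternatives, as were other scalings, filters and leaving out each AJA replicate. The fits were tested on simulated data. The 10 members, and the lists of related genes and markers, were chosen with earlier results of these data known. Genes named from a list are among those with its largest or smallest log2 fold change or those that define a cell type.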

Additional observations from a re-analysis of the deposited data

How the results depend on the processing

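No paired analysis was possible because the groups share only 1 replicate number. Of 576 log2 fold changes of members under the alternatives, 562 kept their direction and their side of the threshold, 6 passed it only under an alternative and 8 reversed. DESeq2 called 2 members (Ccl2 and Ccl7) in bleomycin against control and 2 in AJA against control, where edgeR called 0. Leaving out 1 AJA replicate gave 0 to 1 called in each of these comparisons, and the call came without replicate 3. Members at least 2-fold different numbered 0 in AJA against bleomycin without replicate 2, with limma or with a minimum count of 50 (1 otherwise). They numbered 0 in EHP-101 against bleomycin with that minimum count (1 otherwise), and 0 in EHP-101 against AJA with limma or that minimum count (2 otherwise). Leaving out a replicate gave 0 to 1 in AJA against bleomycin, 3 to 6 in AJA against control and 1 to 2 in EHP-101 against AJA. Ccl9 in EHP-101 against bleomycin turned to −0.0039 with RLE size factors, −0.0024 with the minimum count of 50 and −0.0009 with DESeq2, and Ccl5 to 0.0053 with total counts as library sizes. Leaving out 1 AJA replicate gave a range of −0.0138 to 0.8251 for Ccl8 and −0.28 to 0.5108 for Ccl11 in AJA against bleomycin, and of −0.2452 to 0.0781 for Ccl6 and −0.4814 to 0.34 for Ccl11 in EHP-101 against AJA, with the reversed sign without replicate 2 in each. The cause was not tested. Total-count scaling moved the median of all genes by 0.13 in EHP-101 against control. The median log2 fold change of the members in AJA against control was 1.01 with a minimum count of 50. The stricter filter left 7 members, since Ccl3, Ccl4 and Ccl5 had too few counts, and depth limits what can be said of these 3 genes.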
